A study of Mus musculus with 8 samples.

Results

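Embryonic and developmental sarcomere isoforms were followed in freeze-injured mouse muscle. They are 10 genes chosen by symbol: the embryonic and perinatal myosin heavy chains Myh3 and Myh8, the embryonic light chain Myl4, the cardiac actin Actc1 and the cardiac troponin T Tnnt2, and, on the slow side, Myh7, Myl2, Myl3, Tnnt1 and Tnnc1. Each gene had 1 row on the array that named it alone, and all 10 passed the filter on dim rows, among 15007 genes tested. The tibialis anterior, a mostly fast muscle at the front of the shin, had been injured with a metal probe chilled in liquid nitrogen for 8 seconds and was taken whole 8 days later. The mice were male C57BL/6, with an age of 10 weeks in the sample labels and 2 months in the text of the series. All carried Foxp3-Cre, which acts in regulatory T cells: the 4 flox samples had a floxed ST2 and the 4 WT samples a wild-type ST2, where ST2 is the receptor of the cytokine interleukin-33. The comparison bears on how ST2 in regulatory T cells affects muscle regeneration, and muscle fibres themselves are not a target of the Cre. The level of the floxed gene was not analysed here. Whether each sample came from its own animal is not in the labels, and the p-values then cover only the spread among these 8 arrays, part of which can be technical.

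Sarcomeres are built from thick filaments of myosin and thin filaments of actin, tropomyosin and troponin, and most of these proteins exist as isoforms encoded by separate genes. Fibres that form anew after injury first use embryonic, perinatal and cardiac isoforms, much as fetal muscle does, and replace them with adult fast or slow isoforms as they mature and receive nerve supply. Myh3, Myh8, Myl4, Actc1 and Tnnt2 are therefore widely used as signs of recent fibre formation. Myh7, Myl2, Myl3, Tnnt1 and Tnnc1 are called slow here by their use in adult slow fibres, and some of them also mark the heart. Whether each of them marks slow fibres in muscle 8 days after injury was not tested.

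The sequences that precede the starts of 6 of these genes are shown, and the genes were picked after their values were seen. They are the genes of 4 correlations over the arrays given further on: Myh3 with Tnnc1, Myh3 with Tnnt2, Tnnt2 with Tnnt1, and Myl2 with Myl3. A link between sequence and correlation was not tested. The sequences are the 250 bases before the start in RefSeq's mouse assembly GRCm38.p6, written 5′ to 3′ on the strand of the gene. The windows are chr11:67078050-67078299 on the plus strand for Myh3, chr1:135836084-135836333 on the plus strand for the first of 2 starts of Tnnt2 and chr7:4515976-4516225 on the minus strand for Tnnt1. Those of the light chains, both on the plus strand, are chr5:122092474-122092723 for the first of 2 starts of Myl2 and chr9:110763428-110763677 for Myl3. That of Tnnc1 is chr14:31208062-31208311 on the plus strand. Capitals mark any match on either strand to the following motifs, each found by its letters. The E-box, read by myogenic factors, is CANNTG. The MCAT element, read by TEAD factors, is CATTCC. The box bound by the general TATA factor is spelled TATAAA. The CArG box, read by serum response factor, was searched by its usual consensus.
Myh3: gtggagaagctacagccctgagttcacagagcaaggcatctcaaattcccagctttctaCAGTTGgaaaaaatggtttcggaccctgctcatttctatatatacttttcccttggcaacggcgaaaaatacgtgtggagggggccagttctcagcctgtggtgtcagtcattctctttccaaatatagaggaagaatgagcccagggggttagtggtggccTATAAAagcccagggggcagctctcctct
Tnnt2, first start: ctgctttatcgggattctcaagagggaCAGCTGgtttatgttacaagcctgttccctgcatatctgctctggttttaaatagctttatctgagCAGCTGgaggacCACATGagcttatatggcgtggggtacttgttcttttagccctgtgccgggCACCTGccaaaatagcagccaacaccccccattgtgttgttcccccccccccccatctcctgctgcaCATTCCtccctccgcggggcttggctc
Tnnt1: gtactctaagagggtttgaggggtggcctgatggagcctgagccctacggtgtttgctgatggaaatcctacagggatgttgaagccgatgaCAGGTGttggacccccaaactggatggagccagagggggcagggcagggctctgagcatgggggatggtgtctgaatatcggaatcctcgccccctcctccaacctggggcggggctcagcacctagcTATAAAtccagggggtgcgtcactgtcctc
Myl2, first start: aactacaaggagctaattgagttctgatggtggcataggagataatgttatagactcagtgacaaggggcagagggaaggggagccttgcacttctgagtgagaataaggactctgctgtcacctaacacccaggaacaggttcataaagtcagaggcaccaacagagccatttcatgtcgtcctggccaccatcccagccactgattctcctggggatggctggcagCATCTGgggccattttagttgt
Myl3: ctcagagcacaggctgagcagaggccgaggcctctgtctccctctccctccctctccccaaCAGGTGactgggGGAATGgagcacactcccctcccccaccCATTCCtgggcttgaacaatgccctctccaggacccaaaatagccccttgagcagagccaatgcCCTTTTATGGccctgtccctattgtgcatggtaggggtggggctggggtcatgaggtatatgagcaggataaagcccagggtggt
Tnnc1: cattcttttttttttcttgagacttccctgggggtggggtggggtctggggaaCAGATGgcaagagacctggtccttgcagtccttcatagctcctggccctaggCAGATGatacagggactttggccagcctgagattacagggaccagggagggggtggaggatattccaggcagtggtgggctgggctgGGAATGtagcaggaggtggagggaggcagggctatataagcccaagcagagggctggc

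All 10 genes were found in the promoter table, with 13 windows of this length. Tnnt2, Myh7 and Myl2 had 2 windows each, and those of Myh7 overlap and share an E-box match. An E-box was present in 11 of the 13 windows and in 8 of the 10 genes, against 66.2% of all 32851 windows in the table. The MCAT element was present in 4, in Tnnt2, Myh7, Myl3 and Tnnc1, against 12.6% of all windows. The letters TATAAA were present in 4, in Myh3, Myh8, Myl2 (at its second start) and Tnnt1, against 12.4%. Other spellings of the TATA box were not searched. Counted from the start, the match lay at positions -29 to -24 in Myh3 and -30 to -25 in Tnnt1. In Myh8 (-96 to -91) and Myl2 (-216 to -211) it lay farther from the start and on the strand opposite to the gene. The first window of Tnnt2 held 4 E-boxes and an MCAT element at positions -27 to -22. A CArG box was present in Actc1 and Myl3, against 1.47% of all windows, and a MEF2 site was not found in these 13 windows, against 0.508% of all. All 6 printed windows held an E-box. A match describes letters in a window and is not a binding site.

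In a linear model fitted over all genes with limma, 0 of the 10 genes differed between flox and WT muscle at an adjusted p under 0.05, as did 0 of all 15007 genes (0%). At an unadjusted p under 0.05 there were again 0 of the 10, where 3.79% of all genes lay, or 569, with 2.03% higher in flox and 1.77% lower. That count over all genes depended on single arrays: leaving out flox array 4 gave 3012, flox array 2 gave 245 and WT array 1 gave 278. For 0 of the 10 were the groups apart on every array, where 1.97% of all genes had groups that did not overlap, 1.14% with flox above and 0.826% with flox below every WT array. The flox mean was above the WT mean for 5 of the 10 genes and below it for 5, and it was above for 48.8% of all genes. The median log2 difference, flox minus WT, was 0.0036, beside -0.0025 over all genes tested. By role, 4 of the 5 developmental isoforms had a higher flox mean, with a median difference of 0.10, and 4 of the 5 slow isoforms a lower one, with a median of -0.04. No member of either set passed the test. In whole muscle, fewer fibres that express a gene and less of its RNA per fibre cannot be told apart.

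**Figure D1:**
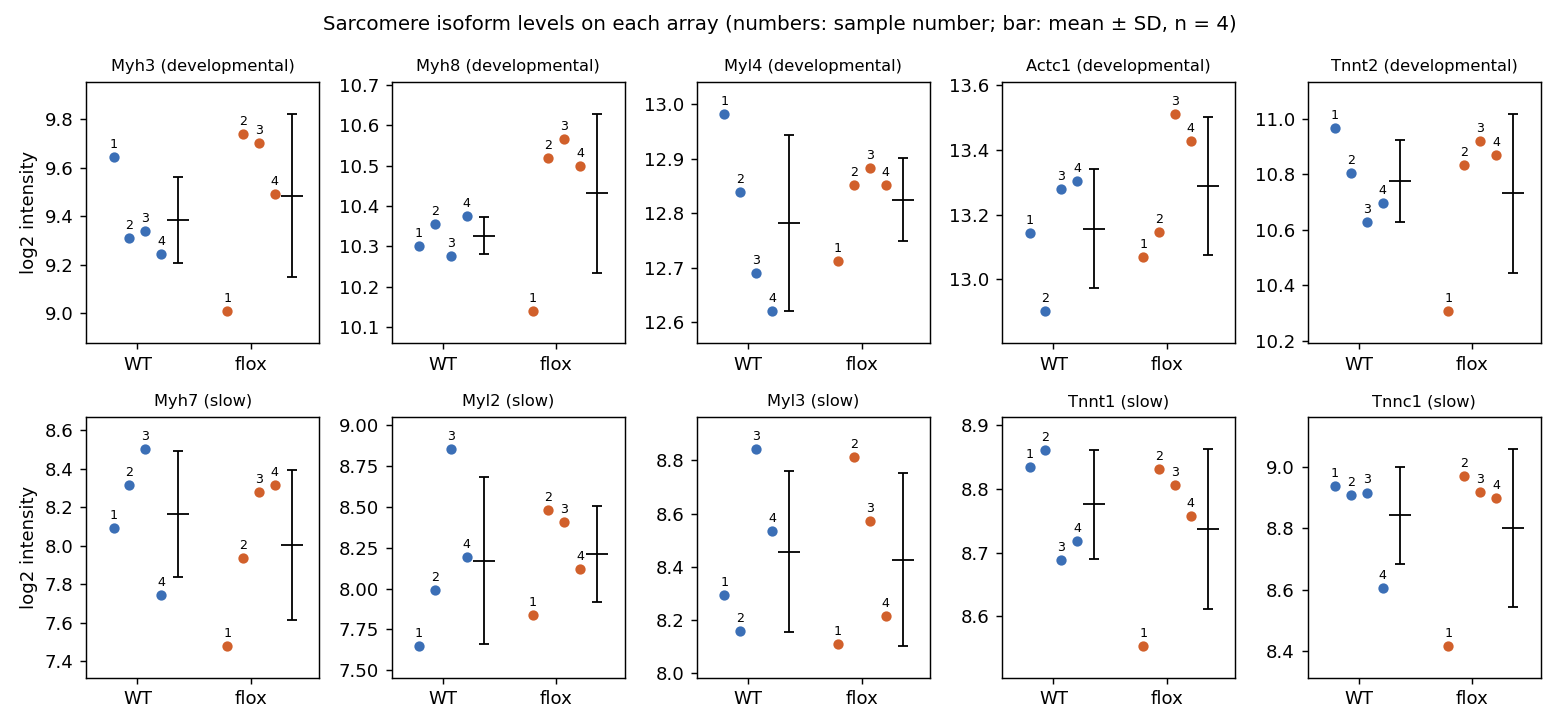
Log2 intensity (vertical axis, a separate scale per panel) of the 10 genes on the 4 WT and 4 flox arrays, with points numbered by sample and bars for the mean ± SD (n = 4). The groups overlap in every panel, and flox array 1 is the lowest of the 8 arrays in 7 panels.

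Myh3, the embryonic heavy chain that new fibres make first, had log2 levels of 9.01, 9.74, 9.70 and 9.49 on flox arrays 1 to 4 and 9.65, 9.31, 9.34 and 9.24 on WT arrays 1 to 4. Flox array 1 was the lowest of all and flox arrays 2 and 3 the highest, so the groups overlapped. The difference was 0.10 (limma SE 0.15, 95% interval -0.24 to 0.44, adjusted p 0.929), or 1.07-fold. Leaving out flox array 1 gave 0.26, and leaving out flox array 2 gave 0.02. Myh8, the perinatal heavy chain that follows Myh3, had levels of 10.14, 10.52, 10.57 and 10.50 in flox and 10.30, 10.36, 10.28 and 10.37 in WT. The 4 WT arrays lay within 0.10 of each other, with 3 flox arrays above all of them and flox array 1 below. The difference was 0.10 (SE 0.09, interval -0.10 to 0.31, limma adjusted p 0.912) and 0.20 without flox array 1, where it did not pass either (limma adjusted p 1.00).

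Myl4 encodes the essential light chain of embryonic muscle and of the adult atrium. Its levels were 12.71, 12.85, 12.88 and 12.85 in flox and 12.98, 12.84, 12.69 and 12.62 in WT. The flox arrays lay inside the range of the WT arrays, and the difference was 0.04 (SE 0.08, interval -0.14 to 0.23, limma adjusted p 0.943). It became -0.01 without WT array 4. Actc1, the actin of the heart and of immature skeletal fibres, had levels of 13.07, 13.15, 13.51 and 13.43 in flox and 13.14, 12.90, 13.28 and 13.31 in WT. Flox arrays 3 and 4 were the highest and WT array 2 the lowest. Its difference of 0.13 was the largest positive one among the 10 genes (SE 0.12, interval -0.13 to 0.39, limma adjusted p 0.912), and it was 0.05 without WT array 2 and 0.20 without flox array 1.

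Tnnt2, the cardiac troponin T that ties troponin to tropomyosin and is made for a time in developing skeletal muscle, had levels of 10.31, 10.83, 10.92 and 10.87 in flox and 10.97, 10.81, 10.63 and 10.70 in WT. Flox array 1 stood below every other array, while the other 3 flox arrays lay among the upper WT arrays. The difference was -0.04 (SE 0.13, interval -0.33 to 0.25, limma adjusted p 0.964), and its sign turned to 0.10 without flox array 1 and to 0.02 without WT array 1.

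Among the slow isoforms, Myh7, the heavy chain of slow fibres and of the ventricle, had levels of 7.48, 7.94, 8.28 and 8.32 in flox and 8.09, 8.32, 8.50 and 7.74 in WT. Flox array 1 and WT array 4 were the lowest, and WT array 3 the highest. The difference of -0.16 was the largest negative one (SE 0.20, interval -0.60 to 0.28, limma adjusted p 0.919), and it was 0.01 without flox array 1. Myh7 is a close copy of the cardiac gene Myh6 beside it, and probes of heavy chain genes can share signal.

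Myl2, the regulatory light chain of slow fibres and the ventricle, had levels of 7.84, 8.48, 8.41 and 8.12 in flox and 7.65, 7.99, 8.86 and 8.19 in WT. The lowest and the highest arrays were both WT, 1.21 apart on the log2 scale, or 2.31-fold. The difference was 0.04 (SE 0.23, interval -0.47 to 0.55, limma adjusted p 0.984), and leaving out 1 array moved it to -0.14 (WT array 1), -0.05 (flox array 2), -0.03 (flox array 3), -0.02 (WT array 2) or 0.27 (WT array 3). Myl3, the essential light chain of the same fibres, had levels of 8.11, 8.81, 8.57 and 8.21 in flox and 8.29, 8.16, 8.84 and 8.53 in WT. WT array 3 and flox array 2 were the highest. The difference was -0.03 (SE 0.18, interval -0.42 to 0.36, limma adjusted p 0.982), with the sign turned without WT array 3 (0.10), flox array 1 (0.08) or flox array 4 (0.04).

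Tnnt1, the slow skeletal troponin T, varied least of the 10 genes. Its levels were 8.55, 8.83, 8.80 and 8.76 in flox and 8.83, 8.86, 8.69 and 8.72 in WT. Flox array 1 was again the lowest, and the difference was -0.04 (SE 0.07, interval -0.20 to 0.13, limma adjusted p 0.942), or 0.02 without that array. Tnnc1, the calcium-binding troponin C of slow fibres and the heart, had levels of 8.42, 8.97, 8.92 and 8.90 in flox and 8.94, 8.91, 8.92 and 8.61 in WT. In both groups 3 arrays lay close together, with flox array 1 and WT array 4 below them. The difference was -0.04 (SE 0.12, interval -0.32 to 0.24, limma adjusted p 0.963), and 0.09 without flox array 1.

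**Figure D2:**
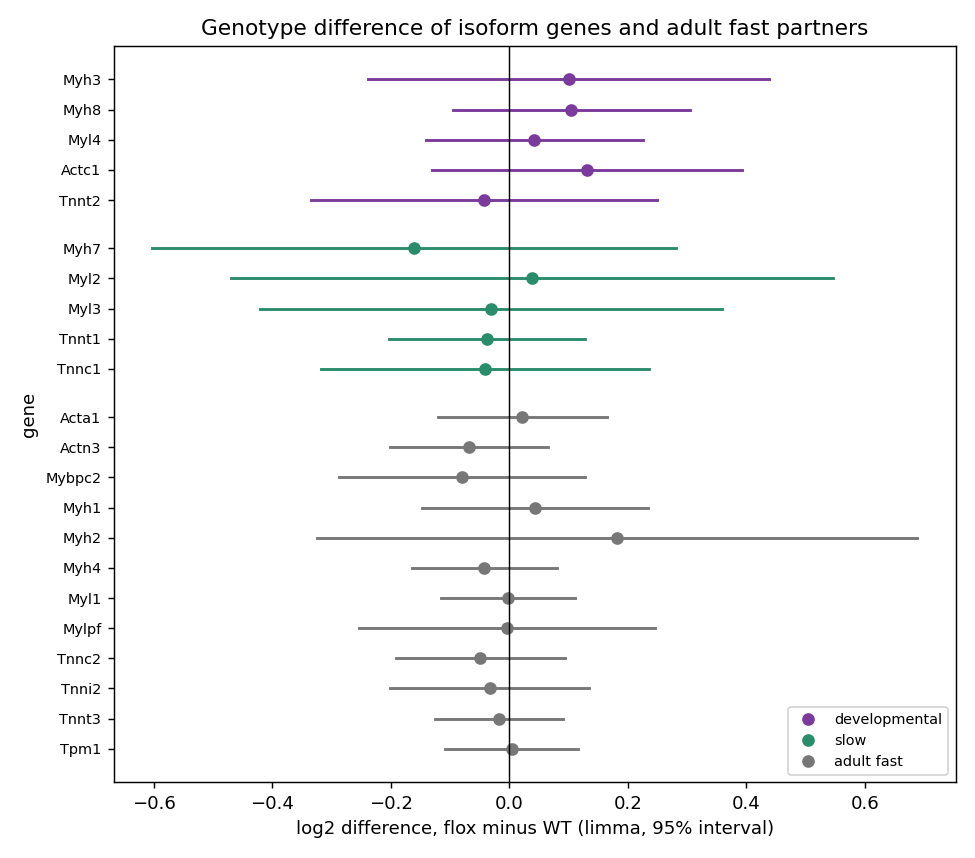
Log2 difference, flox minus WT (horizontal axis), for the developmental isoforms, the slow isoforms and their 12 adult fast partners (vertical axis), with points for the limma estimate and lines for its 95% interval (n = 4 and 4). Every interval crosses 0, from the narrow ones of Tnnt3 and Tpm1 to those of Myl2 and Myh2.

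The intervals set how large a genotype difference these 8 arrays leave possible. The narrowest among the 10 genes was that of Tnnt1, from 0.868-fold to 1.09-fold, and the widest that of Myl2, from 0.722-fold to 1.46-fold. For Myh3 it ran from 0.848-fold to 1.36-fold. The spread between arrays of the same genotype was large for most of these genes. The SD within groups, pooled over flox and WT, had a median of 0.22 log2 over the 10 genes, beside 0.11 over all genes tested. It was higher than in 99.2% of tested genes for Myl2, 98.7% for Myh7, 98.0% for Myl3 and 96.7% for Myh3. For Tnnt1 it was higher than in 49.0%. These percentages describe the arrays and are no test.

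The arrays differed in how often they were at the edge of the range. Flox array 1 held the lowest level of 7 of the 10 genes: Myh3, Myh8, Tnnt2, Myh7, Myl3, Tnnt1 and Tnnc1. Over all genes tested it was the lowest array for 20.1% and the highest for 20.3%. The median of the 10 genes on that array, each taken relative to its own mean over the 8 arrays, was -0.34, against -0.05 to 0.18 on the other 7 arrays. On WT array 3 the slow isoforms had a median of 0.40 and the developmental isoforms one of -0.10, and on WT array 1 these medians were 0.01 and 0.18. WT array 3 carried the highest level of Myh7, Myl2 and Myl3, and WT array 1 that of Myl4 and Tnnt2.

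**Figure D3:**
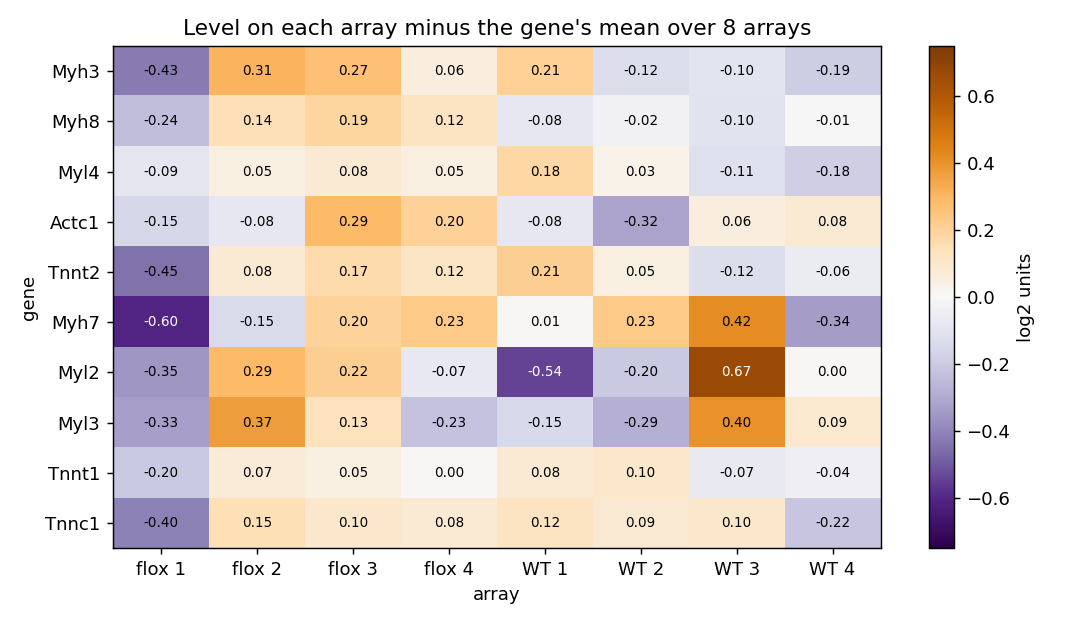
Level of each gene (rows) on each array (columns) minus the gene's mean over the 8 arrays, in log2 units, shown as colour and number. The column of flox array 1 is negative for all 10 genes, from -0.60 for Myh7 to -0.09 for Myl4, and WT array 3 is highest for Myl2 at 0.67.

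Markers of other cells on these arrays were as follows. Skeletal fibre markers were all measured and bright, with 7 of 7 passing the filter at log2 levels of 11.7 to 13.9. Their summed intensity was 72084 to 77921 in flox and 72298 to 78890 in WT, and on flox array 1 their mean lay 0.03 below the mean of the 8 arrays. Of 10 cardiac muscle markers 9 passed, at levels of 6.14 to 8.36 for all 10, with a median percentile of 39.0 among the rows. Their summed intensity was 1228 to 1615 in flox and 1481 to 1535 in WT, and their mean on flox array 1 was 0.21 below that of the 8 arrays. By single gene the percentile ran from 24.7 for Ryr2 to 62.0 for Nkx2-5, with Nppa at 32.5 and Gata4 at 52.6. On flox array 1 the mean of 9 macrophage markers was 0.34 above the mean of the 8 arrays and that of 6 fibro-adipogenic markers, which mark connective tissue progenitors, 0.28 above it. On flox array 2 these means were 0.42 and 0.08, and the 10 genes had a median of 0.11. On flox array 4 the means were -0.39 and -0.35, and the 10 genes had a median of 0.07. Of the 8 arrays, flox array 1 had the highest fibro-adipogenic mean and flox array 2 the highest macrophage mean. The summed macrophage intensity was 8799 to 13834 in flox and 9719 to 11890 in WT, with all 9 markers higher in flox on average. Keratinocyte markers, 8 with a row, were higher on WT array 4 by 1.35 than their mean over the arrays, so that their summed intensity reached 2538 in WT against 1026 in flox. All 7 proliferation markers tested had a higher flox mean, with a median difference of 0.34. Of them, 5 had an unadjusted p under 0.05 in limma, where 3.79% of all genes did, and 0 passed the adjusted threshold. Higher flox means were also found for 7 of 9 smooth muscle and pericyte markers (median 0.09), 4 of 5 tested T cell markers (0.13) and 4 of 6 fibro-adipogenic markers (0.08). Lower ones were found for 8 of 9 tested cardiac markers (-0.11), 4 of 4 tested keratinocyte markers (-0.44) and 5 of 7 skeletal fibre markers (-0.0066). Over all genes tested, the flox mean was higher for 48.8%. The part of these cells in the differences above was not tested.

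The isoforms were then set against their partners. For each pair the log2 difference between both rows was taken within each array, and only its change between arrays and groups was read, since rows of different genes do not share a scale of brightness. There were 16 such pairs, 8 within the 10 genes and 8 with an adult partner. Each was compared by an exact two-sided permutation test over 70 assignments, which cannot give a p below 0.0286. No pair passed, with exact p-values of 0.229 to 1.00, and all became 1.00 after Benjamini-Hochberg adjustment over the 16 pairs.

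The embryonic over the slow heavy chain, Myh3 minus Myh7, was 1.53, 1.80, 1.42 and 1.18 on flox arrays 1 to 4 and 1.55, 1.00, 0.84 and 1.499 on WT arrays 1 to 4. The groups overlapped, with WT arrays 2 and 3 the lowest. The flox mean was higher by 0.26 (SE 0.22, exact permutation p = 0.286), and by 0.13 without WT array 3. The perinatal over the slow chain, Myh8 minus Myh7, was 2.66, 2.58, 2.29 and 2.18 in flox and 2.21, 2.04, 1.77 and 2.63 in WT, higher by 0.27 in flox (SE 0.21, exact permutation p = 0.229). Flox array 1 and WT array 4, the lowest in Myh7, gave the highest values of this pair. The balance between the embryonic and perinatal chains, Myh3 minus Myh8, differed by -0.0044 between the groups (SE 0.13, exact permutation p = 0.943).

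For troponin T, the cardiac over the slow isoform, Tnnt2 minus Tnnt1, was 1.75, 2.00, 2.12 and 2.11 in flox and 2.13, 1.95, 1.94 and 1.98 in WT. Flox array 1 was the lowest, and the difference between the group means was -0.0040 (SE 0.10, exact permutation p = 1.00; 0.08 without flox array 1). Against the adult fast isoform the picture was similar, with -0.02 for Tnnt2 minus Tnnt3 (SE 0.16, exact permutation p = 0.914) and -0.02 for Tnnt1 minus Tnnt3 (SE 0.08, exact permutation p = 0.886). Without flox array 1 they were 0.13 and 0.05. The essential light chains, Myl4 minus Myl3, moved more between arrays, over 0.84 log2. Their values were 4.61, 4.04, 4.31 and 4.64 in flox and 4.69, 4.68, 3.85 and 4.09 in WT, with a difference of 0.07 (SE 0.26, exact permutation p = 0.83; -0.09 without WT array 3). Myl4 minus the adult fast Myl1 differed by 0.04 (SE 0.09, exact permutation p = 0.629), with flox arrays between -0.77 and -0.69 and WT arrays between -0.97 and -0.55.

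The cardiac over the skeletal actin, Actc1 minus Acta1, was -0.66, -0.59, -0.34 and -0.39 in flox and -0.58, -0.75, -0.58 and -0.52 in WT. Flox arrays 3 and 4 were above every WT array and flox arrays 1 and 2 among them. The difference was 0.11 (SE 0.09, exact permutation p = 0.286), and 0.16 without flox array 1. The troponin C pair, Tnnc1 minus Tnnc2, differed by 0.0080 (SE 0.17, exact permutation p = 1.00), and the regulatory light chains, Myl2 minus Mylpf, by 0.04 (SE 0.25, exact permutation p = 0.83). Within the slow isoforms, Myl2 minus Myl3 differed by 0.07 (SE 0.15, exact permutation p = 0.686) and Myh7 minus Tnnt1 by -0.12 (SE 0.22, exact permutation p = 0.629).

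**Figure D4:**
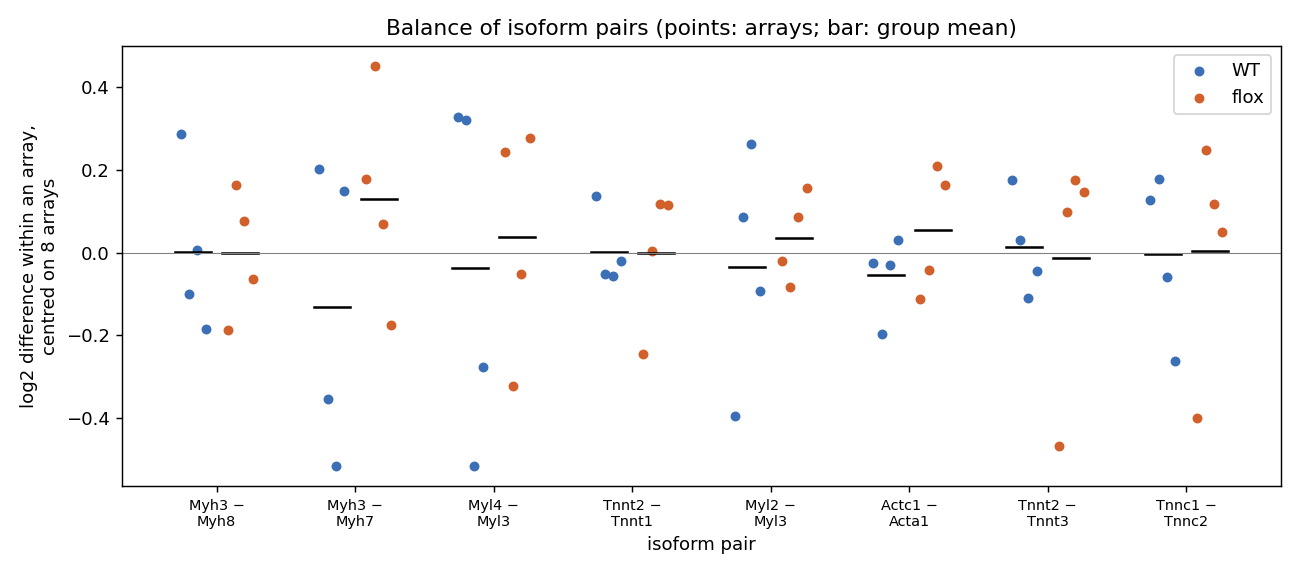
Within-array log2 difference of 8 isoform pairs (horizontal axis), each centred on its mean over the 8 arrays (vertical axis, log2 units), with points for arrays and bars for group means. WT and flox points overlap for every pair, and Tnnt2 minus Tnnt3 shows flox array 1 below the other 7 arrays.

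The levels of the 10 genes were then compared with each other over the 8 arrays. Correlations were computed for all 45 pairs of the 10 genes, of which 39 were positive. Flox array 1, low in all 10 genes, bears on that count. Without it fewer pairs were positive, and no pair turned from negative to positive. For instance, r went from 0.17 to -0.49 for Tnnt2 with Myl3, from 0.45 to -0.06 for Myh3 with Myh7 and from 0.59 to -0.05 for Tnnt2 with Myh7. That of Myl4 with Tnnt2 rose from 0.72 to 0.93. In all 8 arrays, 1 pair passed an adjusted p of 0.05 for Pearson's r. This was Myh3 with the slow gene Tnnc1 (r = 0.83, exact permutation p = 9.18e-04, adjusted p 0.0413; rho = 0.90, exact permutation p = 0.00456, adjusted p 0.103). Without flox arrays 1 and 2, the farthest from the median of Myh3, r was 0.59. The cardiac and slow troponin T genes, Tnnt2 and Tnnt1, had the highest r, 0.91 (exact permutation p = 0.00484, adjusted p 0.0658; rho = 0.69, exact permutation p = 0.0694, adjusted p 0.425). It was 0.51 without flox array 1 and WT array 3, so it rested in large part on those arrays. Myh3 with Tnnt2 gave 0.87 (exact permutation p = 0.00370, adjusted p 0.0658; rho = 0.76, exact permutation p = 0.0368, adjusted p 0.414) and 0.85 without flox arrays 1 and 2.

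For the light chains Myl2 and Myl3, which did not pass after adjustment, r was 0.86 (exact permutation p = 0.00585, adjusted p 0.0658; rho = 0.86, exact permutation p = 0.0107, adjusted p 0.161), and 0.93 without WT arrays 1 and 3. Tnnt2 with Myl2 gave r = -3.65e-04 (exact permutation p = 0.999, adjusted p 0.999; rho = -0.19, exact permutation p = 0.665, adjusted p 0.787), and -0.33 without flox array 1 and WT array 3. Without flox array 1 alone r was -0.65, so the value near 0 rested on that array. Myh7, the heavy chain of the same slow fibres, showed no association with Myl3 that passed (r = 0.27, exact permutation p = 0.510, adjusted p 0.644; rho = 0.31, exact permutation p = 0.462, adjusted p 0.693; r = -0.06 without flox array 1 and WT array 4). Its r with Tnnc1, 0.82 (exact permutation p = 0.0176, adjusted p 0.123; rho = 0.24, exact permutation p = 0.582, adjusted p 0.748), became -0.84 without those 2 arrays and so rested on them. The genes called slow did not all vary alike. With flox array 1 included, r of Tnnt1 was -0.02 with Myl2, 0.14 with Myl3, 0.53 with Myh7 and 0.83 with Tnnc1. With developmental isoforms other than Tnnt2 it was 0.77 for Myh3, 0.69 for Myl4, 0.66 for Myh8 and -0.05 for Actc1. None of these passed after adjustment. The arrays share their tissue and normalization, and these values describe 8 arrays.

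**Figure D5:**
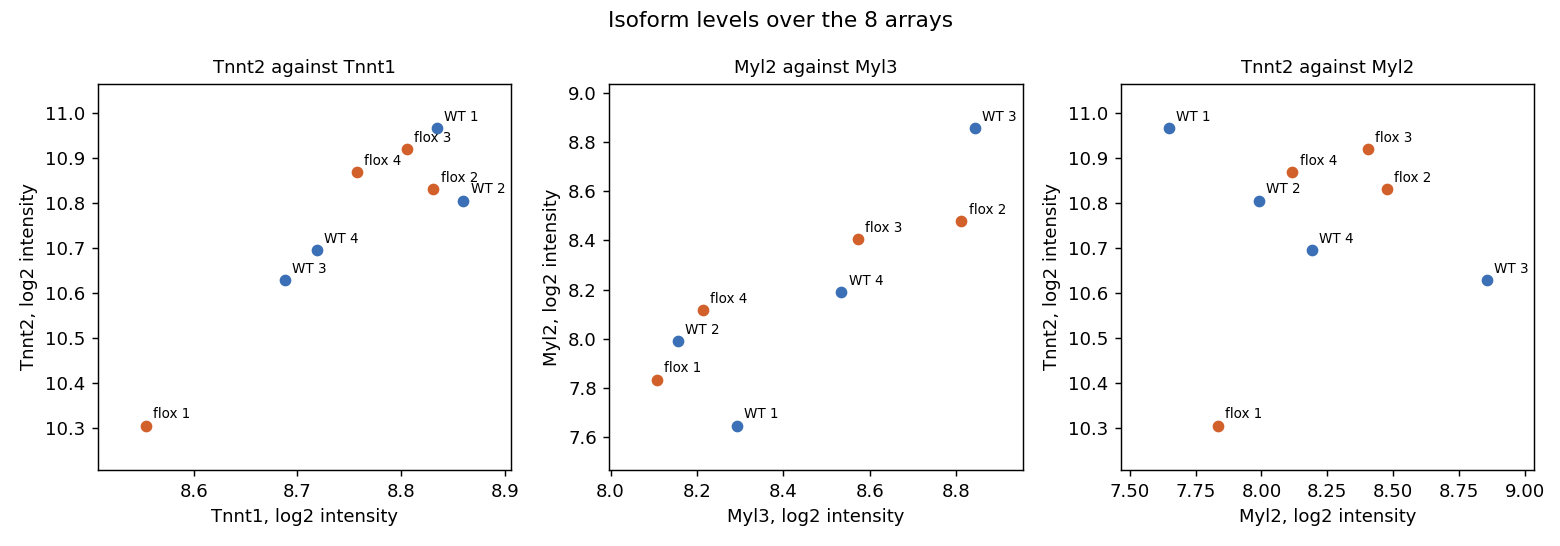
Log2 intensity of Tnnt2 against Tnnt1, Myl2 against Myl3 and Tnnt2 against Myl2 on the 8 arrays, coloured by genotype and labelled by sample number. Flox array 1 lies at the lower left for both troponin T genes (10.31 and 8.55), WT array 3 at the upper right for the light chains (8.86 and 8.84), and, for Tnnt2 against Myl2, flox array 1 lies apart at the lower left while the other 7 arrays run downward (r = -0.65 without it).

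The arrays with high Myl2 and Myl3 were also those with high Myh2, the heavy chain of fast oxidative fibres, which was 11.69, 12.55, 12.11 and 11.85 in flox and 11.48, 11.51, 12.39 and 12.09 in WT. Myh2 differed by 0.18 between the groups (SE 0.23, limma adjusted p 0.919). Csrp3, a stress-responsive partner of the Z-disc, was 9.06, 10.36, 9.71 and 9.49 in flox and 8.95, 8.98, 9.56 and 9.40 in WT, highest on flox array 2 and lowest on flox array 1 and WT arrays 1 and 2. Its difference was 0.43 (SE 0.24, limma adjusted p 0.912). Tnni1, the slow troponin I, instead had its lowest level on flox array 1 (10.33), like Tnnt1 and Tnnt2, with 10.92 to 11.04 on the other flox arrays and 10.67 to 10.85 in WT. These genes were set beside the members after their values were seen.

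Other sarcomere and regeneration genes were taken from lists, which were described by counts and medians. The lists were chosen with earlier results of these data known. Over all genes tested, 3.79% had an unadjusted p under 0.05 in limma and 48.8% a higher flox mean. Of 12 adult fast partners, 4 had a higher and 8 a lower flox mean, with a median difference of -0.01. None passed the adjusted threshold in limma and 0 had an unadjusted p under 0.05, and those with the smallest p were Actn3, the fast fibre actinin (-0.07, SE 0.06), Mybpc2, the fast myosin-binding protein C (-0.08, SE 0.09), Myh2, and Myh4, the fastest heavy chain (-0.04, SE 0.06). Of 15 other slow or cardiac sarcomere genes, 9 were higher and 6 lower, with a median of 0.06 and 0 past the adjusted threshold in limma. One of them had an unadjusted p under 0.05, the cardiac heavy chain Myh6 (-0.25, SE 0.09, limma adjusted p 0.912), which was dim, at 6.63 to 7.10 in flox and 7.05 to 7.24 in WT. Next came Csrp3, Mybpc3, the cardiac myosin-binding protein C (-0.15, SE 0.11), and Tpm3, a slow tropomyosin (0.12, SE 0.09).

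Of 22 tested scaffold and filament genes shared by fibre types, 5 were higher and 17 lower, with a median of -0.02 and 0 past the adjusted threshold in limma. Cmya5, a muscle scaffold protein, had an unadjusted p under 0.05 (-0.13, SE 0.06), and Myom1 of the M-band (-0.11, SE 0.06), the chromatin and chaperone factor Smyd1 (-0.14, SE 0.10) and the thin filament protein Lmod2 (0.11, SE 0.09) followed. Of 17 satellite cell, fusion and immature fibre genes, 12 were higher and 5 lower, with a median of 0.06 and again 0 past the adjusted threshold in limma. There 2 genes had an unadjusted p under 0.05: Igfn1 (0.22, SE 0.09) and Dlk1, an imprinted surface protein (0.20, SE 0.09). Myf5, a factor of satellite cells and myoblasts, differed by 0.12 (SE 0.07) and Chrnd, the acetylcholine receptor delta chain, by 0.10 (SE 0.07).

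The samples numbered 1 and 2 and those numbered 3 and 4 were also compared separately, an addition made after the data were seen, and no member's difference between them passed the test. Among numbers 1 and 2, the flox means were lower for Tnnt2 (-0.32), Myh7 (-0.49), Tnnc1 (-0.23), Tnnt1 (-0.15), Myl4 (-0.13) and Myh3 (-0.10) and higher for Myl2 (0.34) and Myl3 (0.24). Among numbers 3 and 4, the same 6 genes had higher flox means, by 0.23 for Tnnt2, 0.17 for Myh7, 0.15 for Tnnc1, 0.08 for Tnnt1, 0.21 for Myl4 and 0.31 for Myh3, and Myl2 and Myl3 had lower ones (-0.26 and -0.30). Actc1 was higher in both, by 0.09 and 0.18, and Myh8 differed by 9.00e-04 and 0.21. The test of the difference between these differences gave limma adjusted p-values of 0.284 for Myl4, 0.295 for Tnnt2 and 0.348 to 0.730 for the other genes, with 2 against 2 samples in each part. No label says what the numbers stand for.

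Over the 8 arrays, the genes outside the list whose log2 levels were most like those of Myh3 were Ndc80 (r = 0.95) and Ckap2l (r = 0.94), both of the mitotic spindle, and Olfr362 (r = 0.93). Those most like Myh7 were Gal3st2c, Zcchc13 and Agmat (r = 0.95 for each), and those most like Tnnt2 were Phlda2 and Muc2 (r = 0.96 for each) and Elmo3 (r = 0.95). These are the highest values among all tested genes over 8 arrays and are given as a description.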

How the data were processed

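RNA of 8 whole muscles was hybridised to Affymetrix Mouse Gene 1.0 ST arrays, 1 per sample. The authors deposited probeset intensity values on a linear scale (5.81 to 19080), made with RMA in Affymetrix Power Tools per the submitters' processing notes. Version, build and row filter were not given in the sources used here. RMA normalizes probes between arrays before summarising them and shrinks differences at low signal. The median intensity was 185 to 189 per array; the number of arrays limits the precision.

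Values were put on the log2 scale with no pseudocount. Of 24922 rows, 21425 had 1 gene symbol in the platform annotation, 1399 several and 2098 none. Rows below the 25th percentile of mean level (log2 6.35) were dropped and the brightest row kept per gene. Groups were compared with limma 3.58.1 (R 4.3.3; group alone, empirical Bayes, Benjamini-Hochberg over 15007 genes, threshold 0.05), tested on simulated data. Standard errors of pairs come from the group variances. Exact permutation p-values were added for correlations. RefSeq (GRCm38.p6) gave promoter sequences; motifs were searched on both strands. Named genes are the 10 members, up to 4 of each list by smallest unadjusted p, the pair partners, and the 3 most similar genes for Myh3, Myh7 and Tnnt2. Tnni1, Mymk, Tpm1, chromosomal neighbours and single marker genes were named outside this rule, after their values were seen. The members and lists were chosen with earlier results of these data known. Alternatives covered filter, normalization, pseudocount, rows per gene, spread, sample number and leaving out each array. A protein comparison was not made.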

Additional observations from a re-analysis of the deposited data

Results flagged for a closer look

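A single array stood far from the other 3 of its group in 5 of 52 groups examined. Of these groups, 20 were of single genes, with 4 flagged, and the rest were pair balances. Chance alone flags about 1 in 20 groups on average. The groups share arrays and the balances reuse the levels of single genes, so setting the counts beside that rate is no test. On flox array 1, Myh8 had a log2 level of 10.14 (10.50 to 10.57 on the other flox arrays), Tnnt2 one of 10.31 (10.83 to 10.92) and Tnnc1 one of 8.42 (8.90 to 8.97). The balance Tnnt2 minus Tnnt3 was -3.04 on that array and -2.48 to -2.40 on the other flox arrays. On WT array 4, Tnnc1 was 8.61, against 8.91 to 8.94 on the other WT arrays.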

How the results depend on the processing

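Under the filter, normalization, pseudocount, row, spread, block and covariate settings, none of the 10 genes passed an adjusted p of 0.05. Each gene had 1 row and the groups share the sample numbers, so among these only the normalization and pseudocount settings could change a difference. Under those, each of the 10 genes kept its direction. The smallest adjusted p of any of the 10 under any setting, the fits of numbers 1 and 2 alone included, was 0.123. The count of genes past the threshold was 0 to 2 when single arrays were left out, with Cd3g and Ctsh called without flox array 4, and 8 for numbers 1 and 2 alone, none of them a member. Leaving out each array moved the differences over 0.046 to 0.20 for Actc1, 0.015 to 0.26 for Myh3, -0.30 to 0.014 for Myh7, 0.059 to 0.20 for Myh8, -0.14 to 0.27 for Myl2, -0.16 to 0.098 for Myl3, -0.012 to 0.11 for Myl4, -0.12 to 0.087 for Tnnc1, -0.070 to 0.023 for Tnnt1 and -0.11 to 0.099 for Tnnt2. The pair balances moved over 0.058 to 0.16 for Actc1 minus Acta1, 0.065 to 0.30 for Actc1 minus Tnnc1, 0.024 to 0.32 for Myh3 minus Myh4, 0.13 to 0.37 for Myh3 minus Myh7, -0.067 to 0.090 for Myh3 minus Myh8, -0.27 to 0.071 for Myh7 minus Myh4, -0.24 to 0.020 for Myh7 minus Tnnt1, 0.14 to 0.42 for Myh8 minus Myh7, -0.051 to 0.17 for Myl2 minus Myl3, -0.12 to 0.18 for Myl2 minus Mylpf, -0.022 to 0.12 for Myl4 minus Myl1, -0.087 to 0.19 for Myl4 minus Myl3, -0.078 to 0.14 for Tnnc1 minus Tnnc2, -0.055 to 0.050 for Tnnt1 minus Tnnt3, -0.044 to 0.077 for Tnnt2 minus Tnnt1 and -0.087 to 0.13 for Tnnt2 minus Tnnt3. With 4 against 3 arrays the exact test of a pair cannot reach 0.05. Other settings turned the sign of Tnnt2 minus Tnnt1 (0.012 with quantile normalization and 0.0067 with cyclic loess) and Tnnc1 minus Tnnc2 (-0.019 with cyclic loess); the cause was not tested. Fits of numbers 1 and 2 alone turned Myh3 (-0.10), Myl4 (-0.13) and Myl3 (0.24), and those of numbers 3 and 4 alone turned Tnnt2 (0.23), Myh7 (0.17), Myl2 (-0.26), Tnnt1 (0.078) and Tnnc1 (0.15); the cause was not tested. Sample numbers are shared by the groups, and the labels do not say whether they pair the samples. Deviations of same-numbered samples correlated by -0.0017, 0.35, 0.25 and 0.04 across genes, which cannot settle it. With the replicate block 0 genes passed in limma and 694 had an unadjusted p under 0.05, against 569 without it. That count was 929 with the covariate for numbers 1 and 2 against 3 and 4, and 3595 for numbers 1 and 2 alone. The block could not change a member's difference, and that of Myh3 stayed at 0.10 (limma adjusted p 0.914).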

Other observations

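Several of these genes lie beside another sarcomere gene, and their levels are given beside each other. In the RefSeq gene table Myh2 and Myh1 come next after Myh3, and Myh4 comes just before Myh8, in the heavy chain cluster of chromosome 11. Myh3 and Myh2 were both highest on flox array 2 (9.74 and 12.55). Myh3 was lowest on flox array 1 (9.01) and Myh2 on WT array 1 (11.48), where Myh3 was high (9.65). Their r over the 8 arrays was 0.31 (rho = 0.40). Myh4 lay between 13.31 and 13.50 on all 8 arrays. On chromosome 1, Tnni1 lies near Tnnt2, with Lad1 between them, and both had their lowest level on flox array 1, at 10.33 and 10.31. On chromosome 7, the cardiac troponin I gene Tnni3 follows Tnnt1 and lay between 7.09 and 7.31 on all 8 arrays, with 7.10 on flox array 1, where Tnnt1 was lowest (8.55). On chromosome 14, the cardiac heavy chain Myh6 lies next to Myh7, and both were lowest on flox array 1 (6.63 and 7.48) and highest on WT array 3 (7.24 and 8.50). The neighbours were described with their values known.

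Mymk, a membrane protein needed for the fusion of myoblasts, had its lowest level on flox array 1 as well (10.15, against 10.79 to 11.02 on the other flox arrays and 10.53 to 10.75 in WT), and was picked after its values were seen.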
